A study of Mus musculus with 30 samples.

Results

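The genes read together here across the muscle groups of the series were the 4 myogenic regulatory factors MYOD1, MYOG, MYF5 and MYF6, the cofactor MEF2C, the satellite cell genes PAX7 and CDH15, and the fusion gene MYMK. These 8 genes were chosen by name, from 21073 genes in the deposited table. 7 of the 8 were matched by symbol and MYMK by its Entrez identifier, because the table lists it under the older symbol TMEM8C. RNA was from the extensor digitorum longus (EDL), a fast hind limb muscle, of female SJL/J mice, with 30 mice in all and 5 in each of 6 groups. EAE (experimental autoimmune encephalomyelitis, a model of multiple sclerosis) was induced with the myelin peptide [Ser140]-PLP139-151 in complete Freund's adjuvant, and no pertussis toxin was used. OVA-immunized mice received ovalbumin in the same adjuvant, and unimmunized mice received neither. Muscles were taken on day 14, the peak of disease, or on day 40, in remission, so the days were sampled from separate mice. The ages of the mice are not given in the sources used here.

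On GRCm38, the assembly also named mm10, RefSeq places MYOD1 (Entrez 17927) at chr7:46376474-46379092 and MYOG (17928) at chr1:134290004-134292548. MYF5 (17877) is at chr10:107482908-107486927 and MYF6 (17878) at chr10:107492848-107494723, so that 5920 bases lie between them. PAX7 (18509) spans chr4:139737059-139833530, MEF2C (17260) chr13:83504017-83667079, MYMK (66139) chr2:27061636-27072161 and CDH15 (12555) chr8:122848374-122867397. Values are over the exons of each gene.

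The myogenic regulatory factors are basic helix-loop-helix proteins that pair with E proteins, bind the E-box and switch on muscle genes. In development and repair MYF5 and MYOD1 act early, in the committed myoblast, whereas MYOG drives terminal differentiation and MYF6 is the factor most abundant in mature fibers. PAX7 marks satellite cells, the stem cells that lie on the adult fiber, CDH15 encodes M-cadherin, an adhesion protein of satellite cells and myoblasts, and MYMK encodes myomaker, which fuses myoblasts. MEF2C binds other sites and acts with the helix-loop-helix factors. In adult muscle that has lost its nerve supply, MYOG is also known to be produced inside the fibers and to switch on acetylcholine receptor subunits. RNA of whole muscle was measured, so fewer cells of a type and less RNA per cell cannot be told apart.

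Levels are given as RPKM, reads scaled to the length of a gene's exons and to the depth of the library, which can be compared between genes, and as mean ± SD over the 5 mice of a group unless single mice are listed. A gene was called where the Benjamini-Hochberg adjusted p of limma was under 0.05 and the fold change over 1.5. Folds are on the scale of log2(RPKM + 0.1), which understates changes of low genes. The depth recovered from the table was 18080000 to 31540000 reads per mouse. Per mouse this was about 210 to 10916 reads for MYOG and 462 to 3532 for MYOD1, but only 22 to 76 for MYF5, 15 to 79 for PAX7 and 18 to 133 for MYMK. The last 3 genes were under 3 RPKM in all 6 group means and were tested in a fit that included 14172 genes above 0.1 RPKM over all mice. The other 5 were above 3 RPKM in every group, so no group alone let them into the test.

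The muscle of unimmunized mice on day 14 ordered the genes as follows. MYF6 was at 89.5 ± 12.3 RPKM and MEF2C at 82.6 ± 6.74, and their ranges overlapped. MYOD1 followed at 16.7 ± 3.30, then MYOG at 10.1 ± 1.34 and CDH15 at 8.88 ± 0.845, whose ranges also overlapped. MYMK was at 2.08 ± 0.558, MYF5 at 0.740 ± 0.273 and PAX7 at 0.324 ± 0.132. MYF6 thus made up 76.3% of the summed RPKM of the 4 factors in these mice, MYOD1 14.4%, MYOG 8.70% and MYF5 0.635%.

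**Figure D1:**
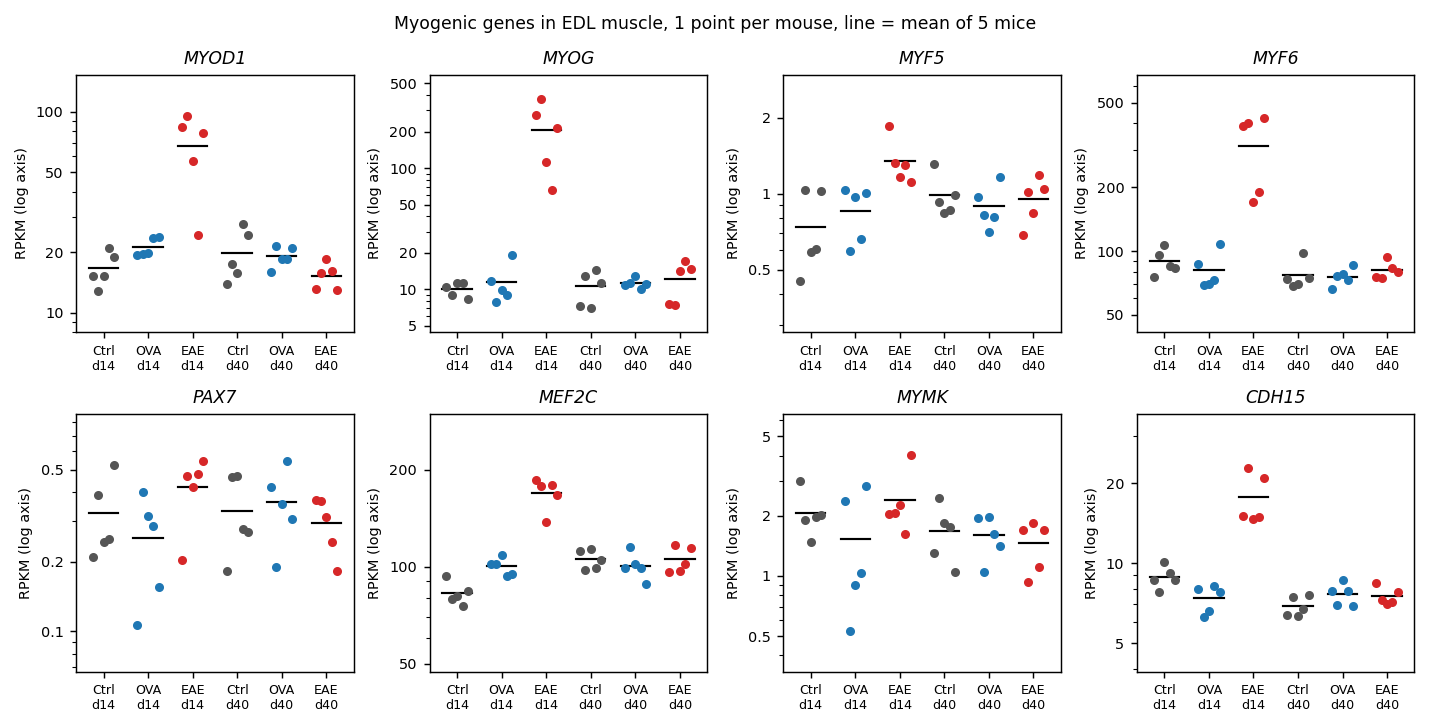
RPKM of the 8 genes (log axis) for each of the 30 mice, with groups on the horizontal axis and a line at the mean of 5 mice. The EAE-induced mice of day 14 lie above every other mouse for MYOG, MYF6, MEF2C and CDH15, and PAX7 and MYMK show overlapping groups throughout.

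The first question was which of these genes differed in EAE-induced mice at the peak of disease. All 5 genes tested at over 3 RPKM were called higher than in unimmunized mice, where 14.6% of the 8771 genes tested were called higher. MYF5 was called higher in the fit of low genes, in which 11.2% of genes were, and PAX7 and MYMK were not called. The change was 17.2-fold for MYOG, 3.73-fold for MYOD1, 3.29-fold for MYF6, 2.05-fold for MEF2C, 1.95-fold for CDH15 and 1.77-fold for MYF5. The RPKM of the 5 EAE-induced mice was above that of all 5 unimmunized mice for 6 of the 8 genes, against 32.2% of genes above 3 RPKM and 25.6% of the 14172 genes whose groups did not overlap.

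MYOG, myogenin, was at 272.9, 368.8, 112.4, 65.9 and 215.7 RPKM in the EAE-induced mice, replicates 1 to 5, against 10.5, 9.07, 11.3, 11.4 and 8.41 in the unimmunized mice. The lowest EAE-induced mouse was several times above the highest unimmunized mouse, and the EAE-induced mice differed among themselves more than those of any other group, with a coefficient of variation of 58.9% against 13.2% in unimmunized mice. On the log2 scale the fold change was 4.10 (SE 0.364, limma adjusted p = 1.28e-06), the 13th largest in size among the 8771 genes. In OVA-immunized mice of the same day MYOG was at 11.8, 7.82, 9.87, 9.06 and 19.1 RPKM, and the log2 fold change of EAE over OVA was 3.98 (SE 0.364, adjusted p = 1.77e-06).

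MYOD1, which commits cells to the muscle lineage, was at 84.3, 95.9, 57.0, 24.3 and 78.2 RPKM in EAE-induced mice and at 15.2, 12.8, 15.2, 21.1 and 18.9 in unimmunized mice. Replicate 4 of the EAE-induced mice was near the unimmunized range, and the other 4 were far above it. The log2 fold change was 1.90 (SE 0.278, limma adjusted p = 7.7e-05) over unimmunized and 1.53 (SE 0.278, adjusted p = 0.000548) over OVA-immunized mice, which were at 19.3, 19.6, 19.9, 23.6 and 23.9 RPKM. The margin to the highest OVA-immunized mouse was small.

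MYF6, the factor most abundant in these muscles, was at 387.9, 401.0, 169.8, 189.6 and 424.8 RPKM in EAE-induced mice and at 75.4, 96.0, 107.0, 85.1 and 83.7 in unimmunized mice. The EAE-induced mice fell into a higher set of 3 mice and a lower pair, replicates 3 and 4, and both lay above all controls. On the log2 scale the fold change was 1.72 (SE 0.239, limma adjusted p = 5.13e-05), and 1.86 (SE 0.239, adjusted p = 2.94e-05) over OVA-immunized mice at 87.2, 69.3, 70.2, 73.2 and 107.6 RPKM.

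MYF5, the neighbour of MYF6 on chromosome 10, is known to act early in myogenesis. It was at 1.86, 1.32, 1.16, 1.30 and 1.11 RPKM in EAE-induced mice, against 0.450, 1.04, 0.586, 0.601 and 1.03 in unimmunized mice. All 5 EAE-induced mice were above all 5 unimmunized mice, by a small margin. The log2 fold change was 0.83 (SE 0.225, limma adjusted p = 0.00993), and it was 0.61 (SE 0.225, adjusted p = 0.053) over OVA-immunized mice, which did not pass. The call over unimmunized mice was lost with a pseudocount of 1, where the log2 fold change of 0.44 fell short of the fold threshold. At 22 to 76 reads per mouse, counting alone gives a relative error of about 15.5% at the median.

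MEF2C, the cofactor, was at 186.3, 177.3, 137.9, 179.5 and 167.1 RPKM in EAE-induced mice and at 93.3, 79.2, 81.0, 75.5 and 84.0 in unimmunized mice. The groups were well apart, and their coefficients of variation were 11.2% and 8.15%. On the log2 scale the fold change was 1.03 (SE 0.099, limma adjusted p = 2.36e-06), and 0.75 (SE 0.0989, adjusted p = 3.5e-05) over OVA-immunized mice. OVA-immunized mice themselves, at 101.7, 101.7, 108.6, 93.5 and 95.0 RPKM, lay above all 5 unimmunized mice, and this difference is taken up with the adjuvant comparison.

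CDH15, M-cadherin, was at 15.0, 22.8, 14.7, 15.0 and 21.0 RPKM in EAE-induced mice and at 8.64, 7.78, 10.1, 9.23 and 8.68 in unimmunized mice, with a clear gap between the groups. The log2 fold change was 0.97 (SE 0.135, limma adjusted p = 5.25e-05). Over OVA-immunized mice, at 8.00, 6.26, 6.60, 8.22 and 7.79 RPKM, it was 1.23 (SE 0.135, adjusted p = 8.47e-06).

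PAX7, the satellite cell factor, was at 0.204, 0.468, 0.419, 0.477 and 0.542 RPKM in EAE-induced mice and at 0.210, 0.390, 0.243, 0.251 and 0.526 in unimmunized mice. The ranges overlapped almost fully, and replicate 1, which had the second highest MYOG value, had the lowest PAX7 value of its group. Replicate 1 also had the lowest PAX7 value of the unimmunized mice, and of the OVA-immunized mice of that day, at 0.107 RPKM. On the log2 scale the fold change over unimmunized mice was 0.31 with a 95% interval of -0.28 to 0.90 (limma adjusted p = 0.392), which does not exclude a change of either sign. MYMK, myomaker, was at 2.04, 2.08, 2.25, 1.62 and 4.05 RPKM in EAE-induced mice and at 3.00, 1.90, 1.48, 1.98 and 2.02 in unimmunized mice, with a log2 fold change of 0.17 and an interval of -0.61 to 0.96 (adjusted p = 0.735). Over OVA-immunized mice the log2 fold changes of PAX7 and MYMK were 0.59 (adjusted p = 0.12) and 0.79 (adjusted p = 0.122), neither of which passed.

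The second comparison set EAE against the adjuvant control. It shares the 5 EAE-induced mice with the first, so the pair of comparisons is not independent. 5 of the 5 genes above 3 RPKM were called higher than in OVA-immunized mice, where 11.0% of 8674 genes were. Of the 3 low genes 0 were called by limma, where 8.28% of genes were called higher, and all 3 had an unadjusted p under 0.05, as did 40.6% of genes in that fit. 6 of the 8 genes had non-overlapping groups here, against 26.2% of genes above 3 RPKM and 19.5% of the 14172 genes. A two-sided exact permutation test, run on every split of the 10 mice compared, gave p = 0.00794, the smallest it can give, for MYOD1, MYOG, MYF5, MYF6, MEF2C and CDH15 in both comparisons, out of 48 such tests. Adjusted over the 48 tests this was 0.0293.

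**Figure D2:**
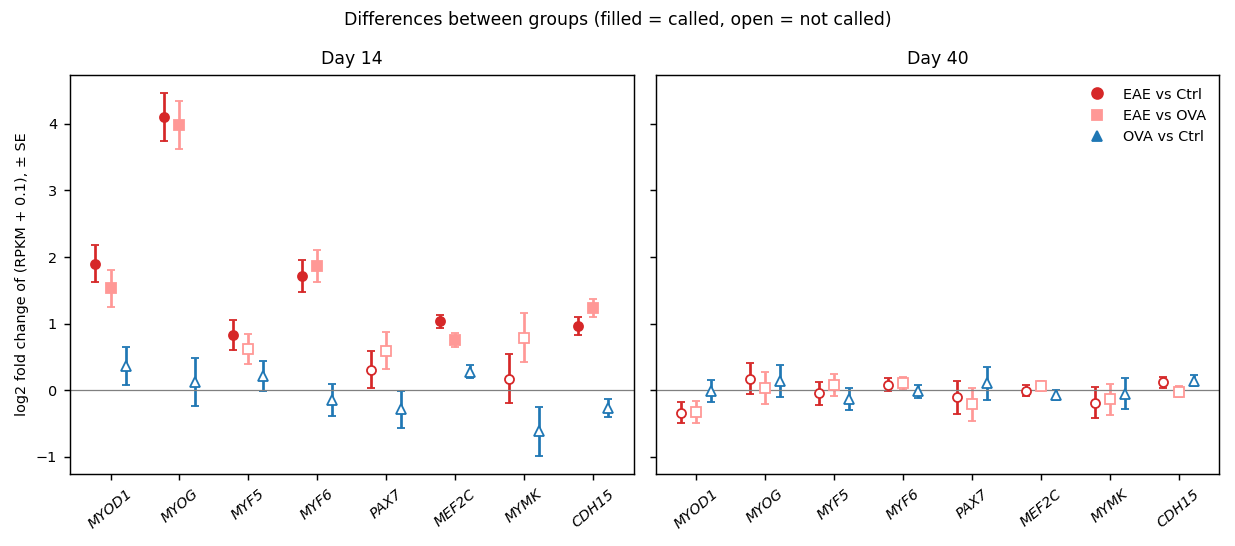
log2 fold change of (RPKM + 0.1) with its standard error for the 8 genes in 3 comparisons on day 14 (left) and day 40 (right), filled where called. The called points are on day 14 in the comparisons with EAE, from 0.75 to 4.10, and no point of day 40 is called.

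The adjuvant comparison asked how mice given ovalbumin in adjuvant, without the myelin peptide, differed from unimmunized mice of the same day. By limma 0 of the 5 genes above 3 RPKM and 0 of the 3 low genes were called in OVA-immunized against unimmunized mice of day 14, where 0.142% of 8471 genes and 0.282% of the 14172 genes were. MEF2C was the 1 of the 8 with an unadjusted p under 0.05, as were 9.69% of genes. MEF2C differed by 0.28 on the log2 scale (95% interval 0.07 to 0.49, unadjusted p = 0.0128, limma adjusted p = 0.377), and it was the only one of the 8 whose groups did not overlap, against 2.69% of genes above 3 RPKM and 2.59% of the 14172 genes. The exact permutation test gave p = 0.00794 for MEF2C, again the smallest possible, and p = 0.0317 for CDH15, which was 0.27 lower in OVA-immunized mice on the log2 scale (limma adjusted p = 0.556). Adjusted over the 48 permutation tests of members these were 0.0293 for MEF2C and 0.109 for CDH15. For MYOG the difference was 0.12 with an interval of -0.65 to 0.89, and for MYMK it was -0.62 with an interval of -1.40 to 0.17. Marker genes of other cell types also differed in this comparison. The summed RPKM of 11 fibroblast markers was 840 to 1108 in OVA-immunized and 1206 to 1669 in unimmunized mice. That of 12 neutrophil markers was 70.2 to 238.9 against 4.28 to 11.4. The erythrocyte sum, at 475.2 to 1586.5 against 189.2 to 684.0, overlapped, as did the sums of the other marker lists. Their part in the MEF2C difference was not tested. In every group of day 40 MEF2C averaged 101 to 105 RPKM, nearer to OVA-immunized (100) than to unimmunized mice (82.6) of day 14. On day 40 the fibroblast sums were 979 to 1129 in unimmunized and 958 to 1206 in OVA-immunized mice. These too were nearer to the OVA-immunized mice of day 14. The neutrophil sum of unimmunized mice, in contrast, had a median of 7.51 on day 14 and 7.41 on day 40. Which group of day 14 moved was not tested.

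On day 40 the EAE-induced mice overlapped both controls for all 8 genes. MYOG was at 7.61, 7.38, 14.2, 17.3 and 14.7 RPKM, against 7.32, 12.8, 7.08, 14.4 and 11.4 in unimmunized mice and 10.9, 11.4, 12.9, 10.1 and 11.2 in OVA-immunized mice. The 3 groups overlapped, although replicates 4 and 5 of the EAE-induced mice were above every unimmunized mouse. MYOD1 was at 13.2, 15.8, 18.4, 16.1 and 13.0 RPKM in EAE-induced mice, with means of 19.9 ± 5.87 in unimmunized and 19.1 ± 2.29 in OVA-immunized mice. It was the member with the largest difference of that day and lay on the lower side, with log2 fold changes of -0.34 (95% interval -0.68 to 0.003, limma adjusted p = 0.181) and -0.32 (-0.66 to 0.02, adjusted p = 0.31). The exact permutation test gave p = 0.151 and p = 0.0476 for these differences, or 0.345 and 0.152 adjusted over the 48 tests of members.

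The other genes of day 40 differed by less. For EAE-induced mice MYF6 was at 81.4 ± 7.95 RPKM, while unimmunized mice were at 77.1 ± 12.1 and OVA-immunized mice at 75.8 ± 7.31. MEF2C was at 105.2 ± 9.51, 105.3 ± 7.26 and 100.7 ± 9.41 RPKM in the same order, and CDH15 at 7.52 ± 0.573, 6.91 ± 0.590 and 7.64 ± 0.715. MYF5 was at 0.955 ± 0.196, 0.985 ± 0.189 and 0.896 ± 0.181 RPKM. PAX7 was at 0.294 ± 0.0808, 0.332 ± 0.127 and 0.363 ± 0.132 RPKM, and MYMK at 1.46 ± 0.410, 1.68 ± 0.547 and 1.60 ± 0.385. By limma 0 of the 8 genes were called and 0 had an unadjusted p under 0.05 in any comparison of that day. For EAE against unimmunized mice 0.460% of genes above 3 RPKM and 0.423% of the 14172 genes were called, and 27.9% had an unadjusted p under 0.05. The same shares were 0.209%, 0.0353% and 17.4% for EAE against OVA, and 0%, 0% and 3.12% for OVA against unimmunized mice. No member had non-overlapping groups, against 5.22%, 5.87% and 0.678% of genes. For MEF2C, whose spread was small, the interval of the difference between EAE-induced and unimmunized mice was -0.17 to 0.16 on the log2 scale, while for PAX7 it was -0.63 to 0.42.

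An interaction term over all 30 mice asked if the EAE difference itself changed from day 14 to day 40. It was called lower on day 40 for all 5 genes above 3 RPKM against unimmunized mice, where 20.9% of 9013 genes were, and for the same 5 against OVA-immunized mice, where 13.7% of 8935 were. The MEF2C call against OVA-immunized mice was lost with median-of-ratios scaling, at -0.58, short of the fold threshold. The change was -3.93 on the log2 scale for MYOG (SE 0.461, limma adjusted p = 3.73e-07), -2.24 for MYOD1 (SE 0.339), -1.63 for MYF6 (SE 0.269), -1.04 for MEF2C (SE 0.120) and -0.85 for CDH15 (SE 0.158) against unimmunized mice. Among the low genes MYF5 was called, at -0.87 (SE 0.282, adjusted p = 0.0161), in a fit where 17.3% of genes were lower. This call was lost with a pseudocount of 1, at -0.46. MYF5 was not called against OVA-immunized mice, at -0.53 (adjusted p = 0.171), where 10.6% were. PAX7 and MYMK were at -0.41 (adjusted p = 0.408) and -0.36 (adjusted p = 0.553) against unimmunized mice, and at -0.80 (adjusted p = 0.123) and -0.92 (adjusted p = 0.131) against OVA-immunized mice. By limma 0 of the 8 changed in the corresponding test of OVA against unimmunized mice, where 0% of genes were called, and 2 of the 8, MEF2C at -0.35 and CDH15 at 0.41, had an unadjusted p under 0.05, as did 9.30% of 8848 genes.

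Within a treatment, the day 40 mice were then set against the day 14 mice. In EAE-induced mice all 5 genes above 3 RPKM were called lower on day 40, where 12.7% of genes were, with log2 differences of -3.91 for MYOG, -2.01 for MYOD1, -1.85 for MYF6, -1.20 for CDH15 and -0.68 for MEF2C. The MEF2C value fell short of the fold threshold with median-of-ratios scaling, at -0.58, and with quantile normalization, at -0.56. The low genes MYF5, PAX7 and MYMK had means of 1.35, 0.422 and 2.41 RPKM in EAE-induced mice of day 14. On day 40 these means were 0.955, 0.294 and 1.46 RPKM. In OVA-immunized mice 0 of the 8 genes were called by limma and 0 had an unadjusted p under 0.05. Of genes above 3 RPKM in OVA-immunized mice of either day 3.97% were called and 24.6% had such a p, and 5.42% of the 14172 genes were called. In unimmunized mice 0 were called, against 9.37% of genes above 3 RPKM and 9.74% of the 14172 genes. There 45.6% of genes above 3 RPKM had an unadjusted p under 0.05. MEF2C was 0.35 higher (SE 0.0852, adjusted p = 0.00569) and CDH15 0.36 lower (-0.36, SE 0.112, adjusted p = 0.0204) on day 40, both under the 1.5-fold threshold. MYF5, with an unadjusted p of 0.0466 and an adjusted p of 0.122, was 0.41 higher.

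The balance between the factors was read as ratios of RPKM within each mouse, which a common scaling of a library cannot move. MYOG over MYOD1 was 3.24, 3.85, 1.97, 2.72 and 2.76 in the EAE-induced mice of day 14, and it ranged from 0.444 to 0.744 in unimmunized and from 0.384 to 0.803 in OVA-immunized mice. Every EAE-induced mouse of day 14 had more MYOG than MYOD1 per length and no control mouse did. The exact permutation test of the log2 ratio gave p = 0.00794 against either control, or 0.0317 adjusted over 12 tests of ratios. On day 40 the ratio was 0.577, 0.467, 0.771, 1.07 and 1.13 in EAE-induced mice and 0.447 to 0.731 in unimmunized mice, and the log2 difference of 0.52 gave an exact permutation p of 0.103.

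MYF6 over MYOD1, in contrast, ranged from 2.98 to 7.82 in EAE-induced mice and from 4.04 to 7.52 in unimmunized mice of day 14, so these ranges overlapped. On day 40 it was 5.71, 4.71, 5.10, 5.17 and 6.15 in EAE-induced mice, 3.53 to 4.18 in OVA-immunized mice and 3.09 to 5.31 in unimmunized mice. All 5 EAE-induced mice of that day were above the OVA-immunized mice, but they overlapped the unimmunized mice. The log2 differences were 0.43 over either control, with exact permutation p = 0.00794 over OVA-immunized and p = 0.0317 over unimmunized mice, and 0.0317 and 0.0952 after adjustment over the 12 tests of these ratios. The share of MYOG in the summed RPKM of the 4 factors was 33.1% ± 7.14 in EAE-induced mice of day 14, up from 8.70% ± 1.24 in unimmunized mice. The share of MYF6 was 54.9% ± 8.41 against 76.3% ± 3.77, that of MYOD1 11.7% ± 3.00 against 14.4% ± 3.20, and that of MYF5 0.272% ± 0.132 against 0.635% ± 0.239. MYF6 remained the most abundant of the 4 in the mean of every group.

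**Figure D3:**
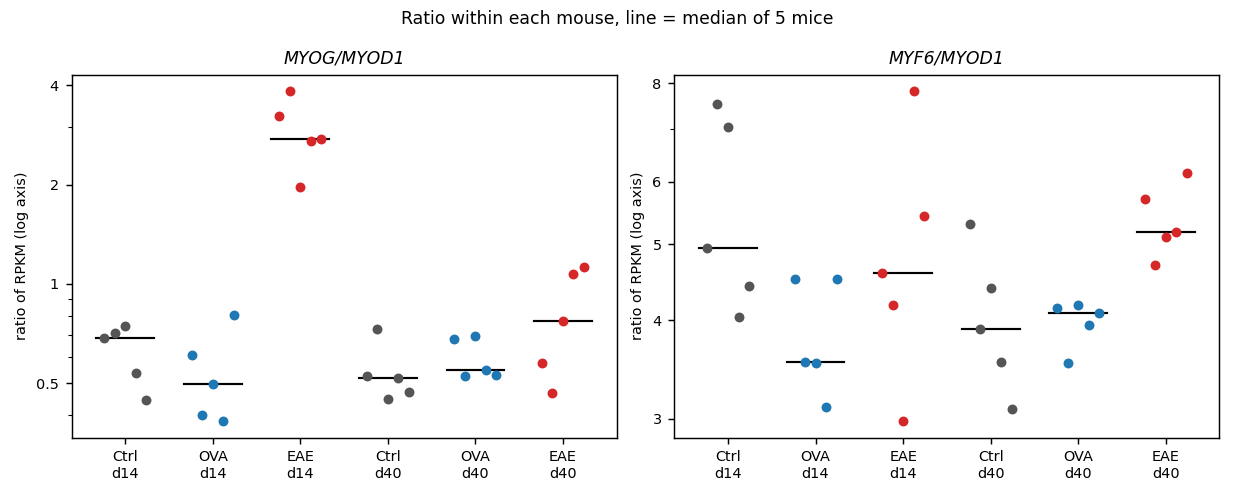
Ratios of RPKM within each mouse (log axis) for MYOG over MYOD1 (left) and MYF6 over MYOD1 (right) in the 6 groups, with a line at the median of 5 mice. MYOG over MYOD1 is between 1.97 and 3.85 in EAE-induced mice of day 14 and at most 1.13 in any other mouse, whereas the MYF6 ratios of the groups of day 14 overlap and those of EAE-induced mice of day 40 (4.71 to 6.15) lie above those of OVA-immunized mice (3.53 to 4.18).

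The 5 EAE-induced mice of day 14 did not rank alike for every gene. MYOD1 and MYOG ordered them identically, with replicate 2 highest, then replicates 1, 5, 3 and 4. Replicates 3 and 4 were also the lowest pair for MYF6, in the other order, and for CDH15 replicate 3 was lowest, replicate 4 next. MEF2C had replicate 4 second highest and replicate 3 lowest, and PAX7 had replicate 1 lowest. Replicate 3 was also the library with the highest recovered depth, 31540000 reads against at most 24700000 in the others, and its part in these ranks was not tested.

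**Figure D4:**
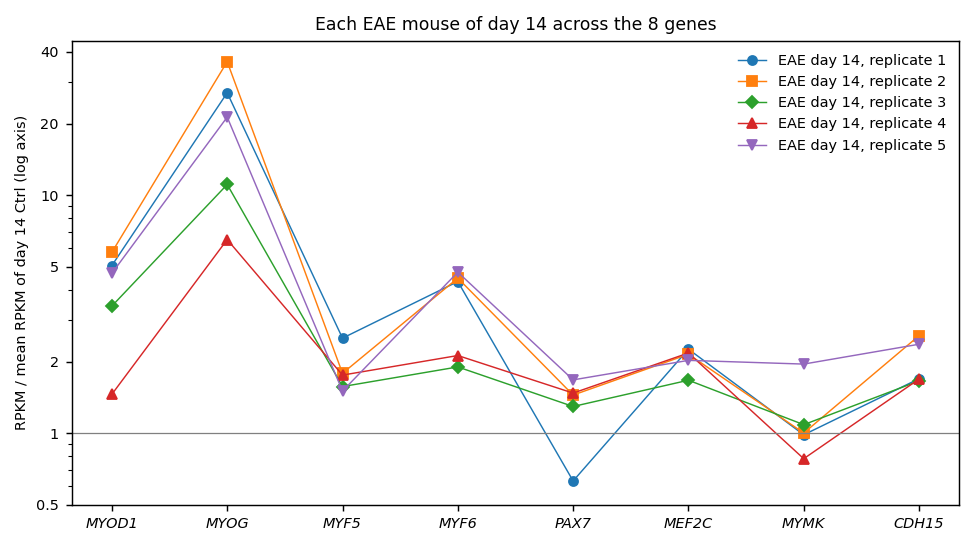
RPKM of each EAE-induced mouse of day 14 divided by the mean of the unimmunized mice of day 14 (log axis) for the 8 genes, 1 line per mouse. All 5 lines are above 1 for MYOD1, MYOG, MYF5, MYF6, MEF2C and CDH15, and they cross 1 for PAX7 and MYMK.

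Over all 30 mice, Pearson's r of log2(RPKM + 0.1) was computed between each member and the 10989 genes with a mean over 1 RPKM, as a description. Among the closest to MYOG were ANKRD1, CD82 and BOP1 (each r = 0.97). MYOG itself was the closest gene to MYF6 (r = 0.96), and MYOD1 was closest to TRAF2 (r = 0.94) and RUNX1 (r = 0.93). FBXO31 and CD82 were among the closest to CDH15 (each r = 0.95), and VEZT was the closest to MEF2C (r = 0.93). The points share the large difference of the EAE-induced mice of day 14. With the group means removed, MYOG had an r of 0.78 with MYF6, 0.74 with MYOD1 and 0.48 with CDH15, but -0.03 with MEF2C and -0.37 with PAX7. Removing the means leaves the spread within groups, which for MYOG was widest in EAE-induced mice of day 14 (coefficient of variation 58.9%). The weight of these mice in the r values was not tested. PAX7 had an r of at most 0.30 with any other member over the 30 mice, and its closest gene was BICRA (r = 0.76). It had 15 to 79 reads per mouse, and the part of depth in these values was not tested.

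Promoter windows from RefSeq (GRCm38.p6, the same assembly as mm10), 250 bases before to 50 after a start site, were matched for 5 of the 8 members, namely MYOG, MYF5, PAX7, CDH15 and MEF2C. They are shown for the 2 genes of them called higher in both comparisons with 1 listed start site, and for the low genes MYF5 and PAX7, with the E-box CANNTG in capitals. This motif reads the same in both directions as a pattern, so 1 search covers both strands, and the letters CAGCTG are a form of it. The MYF5 and PAX7 start sites lie inside the spans given above. The windows are MYOG at chr1:134289754-134290053, plus strand, CDH15 at chr8:122848124-122848423, plus strand, MYF5 at chr10:107486085-107486384, minus strand, and PAX7 at chr4:139832919-139833218, minus strand.
MYOG: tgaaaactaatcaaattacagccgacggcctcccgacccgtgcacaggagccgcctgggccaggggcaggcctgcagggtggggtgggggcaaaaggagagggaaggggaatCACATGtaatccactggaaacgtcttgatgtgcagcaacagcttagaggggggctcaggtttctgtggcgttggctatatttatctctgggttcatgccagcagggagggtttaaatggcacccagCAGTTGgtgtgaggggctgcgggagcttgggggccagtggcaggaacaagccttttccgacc
CDH15: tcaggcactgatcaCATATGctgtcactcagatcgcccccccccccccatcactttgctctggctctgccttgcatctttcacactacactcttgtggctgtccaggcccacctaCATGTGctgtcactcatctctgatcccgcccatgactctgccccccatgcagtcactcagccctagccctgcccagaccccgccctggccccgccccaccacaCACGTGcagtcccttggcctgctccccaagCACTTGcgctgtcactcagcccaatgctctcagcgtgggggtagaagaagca
MYF5: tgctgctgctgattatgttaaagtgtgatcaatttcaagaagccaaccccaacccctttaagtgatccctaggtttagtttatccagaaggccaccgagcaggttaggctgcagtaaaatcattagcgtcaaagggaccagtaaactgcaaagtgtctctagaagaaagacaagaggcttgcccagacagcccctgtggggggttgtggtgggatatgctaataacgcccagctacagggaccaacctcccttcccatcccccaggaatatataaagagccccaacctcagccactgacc
PAX7: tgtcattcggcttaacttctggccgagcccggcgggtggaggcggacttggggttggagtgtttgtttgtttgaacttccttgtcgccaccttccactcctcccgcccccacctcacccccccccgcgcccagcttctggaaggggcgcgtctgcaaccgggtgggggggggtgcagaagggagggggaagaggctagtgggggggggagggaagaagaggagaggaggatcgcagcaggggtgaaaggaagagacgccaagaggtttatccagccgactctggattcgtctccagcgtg
The MYOG window holds 2 E-boxes, CACATG at -138 and CAGTTG at -12 from the start site. The CDH15 window holds 4, CATATG at -236, CATGTG at -135, CACGTG at -32 and CACTTG at -2. No E-box was found in the MYF5 and PAX7 windows, and 2, 0 and 1 were found in the 3 windows of MEF2C. Of 32851 promoter windows of this length 72.3% hold at least 1 E-box, 39.6% at least 2 and 6.49% at least 4. The form CAGCTG, held by 16.3% of windows, was in none of the members' windows. A match is a run of letters and not a measured binding site.

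Genes that act around these factors were counted from lists chosen by function. To keep a group from letting its own high genes in, the counts are over listed genes above 3 RPKM in both groups compared. Over the 7764 such genes, EAE-induced against unimmunized mice of day 14 gave 13.0% higher and 9.70% lower calls, with a median log2 fold change of 0.11. Of 3 E protein partners, all above 3 RPKM, 1 was called higher, TCF12, at 8.85 ± 0.938 against 5.25 ± 1.52 RPKM (0.80 on the log2 scale, SE 0.198, adjusted p by limma 0.00405). The other 2, TCF3 and TCF4, were on the lower side at -0.22 (adjusted p = 0.0716) and -0.32 (adjusted p = 0.0254), under the fold threshold, and the median of the list was -0.22. Of the 3 other MEF2 genes 2 were above 3 RPKM and MEF2A was called higher, at 29.9 ± 10.7 against 9.13 ± 5.40 RPKM (2.00, SE 0.581, adjusted p = 0.0105), although its unimmunized mice ranged from 1.26 to 16.0. The 27 named list genes called in this comparison were refitted with each of the 10 mice left out in turn, a choice made after seeing the data. Calls were lost only without unimmunized mouse 1, the lowest of its group for 10 of the 27, among them MEF2A, TCF12, FERMT2, EYA4, RB1 and MSTN. Without it MEF2A had a log2 fold change of 1.40 (SE 0.441, adjusted p = 0.0185), and the TCF12 call was lost at 0.58 (adjusted p = 0.00321), just under the fold threshold, which left 0 of the 3 E proteins called. The call of FERMT2, an adhesion gene, was lost as well. The other 25 remained called, MSTN at 0.96, EYA4 at 1.57 and RB1 at 1.94. Neither MEF2A nor TCF12 was called against OVA-immunized mice, where 0 of the 3 and 0 of the 2 were. Of 15 inhibitors of the helix-loop-helix factors 7 were above 3 RPKM, and 0 were called by limma in either direction. An unadjusted p under 0.05 was reached by 2 of the 7, against 55.4% of the 8771 genes above 3 RPKM in either group. The inhibitors with the highest RPKM, BHLHE40 and ID3, had log2 fold changes of 0.05 (adjusted p = 0.779) and 0.25 (adjusted p = 0.317). Against OVA-immunized mice 9.98% of the 7885 genes above 3 RPKM in both groups were called higher. Of the 7 inhibitors 1 was, HES1, a repressor of the Notch pathway, at 0.93 (SE 0.304, adjusted p = 0.0242). This call was lost in 4 of 10 refits, without EAE replicates 1 or 2 or OVA replicates 2 or 3, with adjusted p from 0.0523 to 0.0694. On day 40 HES1 was called higher, with means of 19.8 RPKM for EAE-induced, 13.1 for unimmunized and 12.7 for OVA-immunized mice (0.61, adjusted p = 0.0236, and 0.63, adjusted p = 0.0421). BHLHE41 was also called higher against OVA-immunized mice of day 40 (0.60, adjusted p = 0.0464). With a mouse left out these calls of day 40 were often lost. The HES1 call over unimmunized mice was lost without unimmunized replicates 1, 3 or 5 or EAE replicates 2, 3 or 4 (0.53 to 0.62 on the log2 scale, adjusted p up to 0.0683). Over OVA-immunized mice the HES1 call was kept only without replicate 1 of either group, and the BHLHE41 call only without EAE replicate 1, with adjusted p of up to 0.136 in the other refits. These calls, 1 of 7 and 2 of 7, compare with 0.0733% and 0.0366% of genes called higher on that day, and the genes were named after their values were seen.

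Of 17 upstream regulators 12 were above 3 RPKM, 3 were called higher and 0 lower. EYA4, a transcriptional cofactor in early muscle development, was at 11.3 ± 3.56 against 3.13 ± 1.40 RPKM (1.92, SE 0.377, adjusted p = 0.000794). RUNX1, known to rise in denervated muscle, was at 4.08 to 19.6 RPKM in EAE-induced mice and at 0.984 to 1.70 in unimmunized mice, with no overlap (2.84, SE 0.327, adjusted p = 9.69e-06), and it passed the filter through the EAE group alone. Of 20 satellite cell surface and quiescence genes 10 were above 3 RPKM, 3 higher and 1 lower. CD82, a tetraspanin of satellite cells, was at 47.0 ± 15.5 against 8.43 ± 1.12 RPKM (2.41, SE 0.200, adjusted p = 9.09e-07), and NCAM1, a surface protein of satellite cells and of denervated fibers, at 7.91 ± 2.73 against 1.28 ± 0.268 (2.49, SE 0.225, adjusted p = 1.37e-06), although of the 2 groups only the EAE-induced mice had an NCAM1 mean above 3 RPKM. CXCR4 and SDC3, a chemokine receptor and a syndecan, fell by 1.07 (SE 0.181) and 1.05 (SE 0.191) on the log2 scale, and of the 2 groups compared only the unimmunized mice had a CXCR4 mean above 3 RPKM.

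The highest share of genes called higher among these lists was in the 15 genes of the neuromuscular synapse and of denervated muscle. Of them 7 were above 3 RPKM in both groups and 5 of these were called higher, with a median log2 fold change of 1.58 against 0.11 over all genes, and 0 were called lower. The 5 were CHRNA1 and CHRNB1, subunits of the acetylcholine receptor, the ubiquitin ligase genes FBXO32 and TRIM63, and GADD45A. They were named after their values were seen, with log2 fold changes of 2.93, 1.78, 1.58, 1.49 and 2.62. Against OVA-immunized mice 6 of 8 were called higher, where 9.98% of 7885 genes were. CHRNG, the receptor's fetal subunit, was at 3.88 to 16.4 RPKM in EAE-induced mice against 0.742 to 1.74 in unimmunized mice (3.01, SE 0.365, adjusted p = 1.55e-05), and MUSK, the receptor kinase of the synapse, at 5.10 to 19.4 against 0.315 to 1.33 (3.43, SE 0.430, adjusted p = 2.08e-05). Both passed the filter through the EAE group alone. CHRNE, the adult subunit, chosen after its values were seen, was at 8.61 RPKM on average against 12.2 (-0.50, SE 0.139, adjusted p = 0.00809) and did not pass the fold threshold. On day 40 CHRNG was at 0.631 ± 0.166 and MUSK at 0.754 ± 0.390 RPKM in EAE-induced mice, and CHRNA1 and CHRNB1 differed from unimmunized mice by -0.08 (adjusted p = 0.616) and 0.01 (adjusted p = 0.96). Of the 7 listed genes above 3 RPKM in both groups of that day 0 were called higher and 1 lower, where 0.232% of genes were called lower. This was FBXO32, which differed from unimmunized mice by -0.61 (SE 0.136, adjusted p = 0.0312). Of the 7, 2 had an unadjusted p under 0.05, as did 27.9% of the 8691 genes above 3 RPKM in either group. The FBXO32 call was lost in 7 of 10 refits, without unimmunized replicates 1, 3 or 5 or EAE replicates 2, 3, 4 or 5, with adjusted p from 0.0512 to 0.0761.

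Developmental contractile and cytoskeletal genes moved in both directions. All 11 were above 3 RPKM, 6 were called higher and 2 lower. MYOM3 and MYBPH, of the M-band and the thick filament, had log2 fold changes of 2.36 (SE 0.253) and 2.35 (SE 0.244), whereas ACTC1, cardiac actin, was at 38.2 ± 4.83 against 249.9 ± 108.2 RPKM (-2.61, SE 0.265, adjusted p = 3.77e-06) and VIM fell by 1.03 (SE 0.205). Of 19 adhesion and fusion genes 18 were in the table and 7 were above 3 RPKM, 2 higher and 0 lower. These were DYSF, of membrane repair (1.32, SE 0.150), and FERMT2 (0.67, SE 0.143). Without unimmunized mouse 1, at 44.6 RPKM the lowest of its group, the FERMT2 call was lost at 0.54 (SE 0.115, adjusted p = 0.00191), under the fold threshold, which left 1 of the 7.

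Of 17 cell cycle genes 8 were above 3 RPKM, 3 higher and 0 lower. CDKN1A, an inhibitor of cyclin-dependent kinases that MYOD1 is known to switch on, was at 198.3 ± 80.2 against 24.4 ± 6.04 RPKM (2.94, SE 0.305, adjusted p = 4.38e-06), and RB1 at 23.4 ± 5.56 against 5.23 ± 1.41 (2.15, SE 0.215, adjusted p = 3.2e-06). CCND1 and CCND2, D-type cyclins that drive entry into the cycle, fell by 1.35 (SE 0.280) and 0.72 (SE 0.201) but of the 2 groups compared only the unimmunized mice had means above 3 RPKM. Of 15 growth signals 5 were above 3 RPKM, 2 higher and 0 lower. MSTN, myostatin, had a log2 fold change of 1.39 (SE 0.366, adjusted p = 0.00593). GDF5, a growth factor of the BMP family, was at 2.58 to 26.4 RPKM in EAE-induced mice and at 0.0553 to 0.156 in unimmunized mice (5.84, adjusted p = 1.16e-06), and passed the filter through the EAE group alone.

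Markers of the cells a muscle holds were summed beside these results. The tissue label was met by fast fiber genes, whose summed RPKM was 85173 to 129160 in unimmunized mice of day 14, against 1988 to 3223 for slow fiber genes. In EAE-induced mice of day 14 the fast fiber sum was 58790 to 79847 and the slow fiber sum 1290 to 2112, with 4 of 12 and 4 of 10 of these markers called lower. The 13 satellite cell markers, which include PAX7, CDH15 and MYF5, summed to 114 to 154 RPKM in EAE-induced mice against 78.2 to 92.1 in unimmunized and 78.4 to 91.2 in OVA-immunized mice, with no overlap. Of the 12 tested in the fit of low genes, on which all marker counts rest, 4 were called higher and 0 lower against unimmunized mice, CDH15, MYF5, ITGA7 and SDC4, the last named after its values were seen. ITGA7, an integrin that fibers also express, had the highest mean over all mice, 33.3 RPKM, while the defining satellite cell markers were low, PAX7 at 0.422 RPKM in EAE-induced mice and CALCR at 0.0575 over all mice.

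Marker genes of several other cell types were called in the same comparison, in a fit where 13.6% of the 14172 genes were called lower and 11.2% higher. Of 11 fibroblast markers 10 were called lower in EAE-induced than in unimmunized mice of day 14, and their sum was 401 to 649 against 1206 to 1669 RPKM. Of 11 macrophage markers tested 7 were lower, with sums of 163 to 360 against 344 to 508, and of 12 endothelial markers 4 were lower, with sums of 144 to 193 against 171 to 229. The macrophage and endothelial sums overlapped between the groups. The neutrophil sum was 220 to 405 in EAE-induced, 70.2 to 238.9 in OVA-immunized and 4.28 to 11.4 in unimmunized mice, and 10 of the 10 markers tested were higher than in unimmunized mice. Of 8 tendon markers 7 were lower and 1 higher, with sums of 291 to 457 against 570 to 816 RPKM, and of 9 lymphocyte markers 3 were lower, with overlapping sums of 1.64 to 3.99 against 3.57 to 10.4. The erythrocyte sum was 26.5 to 188.7 RPKM in EAE-induced mice and 189.2 to 684.0 in unimmunized mice, with 4 of 6 markers lower. Of 8 adipocyte markers 2 were lower, with sums of 376 to 568 against 635 to 911 RPKM. The Schwann cell sum was 82.3 to 123.7 against 115.4 to 125.6 RPKM and the smooth muscle sum 133.9 to 156.4 against 121.4 to 173.5, with overlapping groups. The part of these shifts in the results for the 8 genes was not tested.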

How the data were processed

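RNA was read as poly(A)-selected, paired-end libraries of EDL muscle from 30 mice. The authors aligned reads to mm10 with Subread and counted them over RefSeq transcripts with featureCounts, as the study's methods and the processing notes say, and whether strand was used in counting is not given in the sources used here. The deposited values are log2(RPKM + 1), with 0.0001 written for no read. No source states this scale. It was taken from the file, since RPKM times exon length must sum to 1e+06 per mouse, and came to 1027023 to 1093680 on this scale but to 17374290 to 27987525 on a natural log. Values were turned back into RPKM, and depth, 18080000 to 31540000 reads per mouse, was recovered from the steps between low values. At that depth 52.8% to 57.3% of low values were whole reads within 0.05, too few for a count test, so reads per gene are approximate. Hence limma 3.58.1 in R 4.3.3 was fitted with a mean-variance trend to log2(RPKM + 0.1). Each model held the 15 mice sampled on a day, or all 30 for changes between days. Genes above a mean of 3 RPKM in a compared group were tested, and p-values were adjusted over all of them. The fit was tested on simulated data. Python 3.11.15 was used for exact permutation tests, ratios and motif searches.

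Replicates were taken as separate mice, from the replicate numbers in the labels and the 5 per group that the study gives. No shared litter or batch was named. The antigen dose is left out because the sources give it in different units. The 8 members and all gene lists were chosen with earlier results of these data known, so that none is independent support. Named list genes were at most the 2 called with the largest change in each direction for EAE against unimmunized mice on day 14, or the 2 highest where none was called. TCF3, TCF4, HES1, BHLHE41, CHRNE and the 5 named genes called higher in the synapse list were named after their values were seen. Other pseudocounts, filters, scalings, models and each mouse left out were tried as alternatives. 27 symbols were listed as dates and 25.8% of all values held no read. Positions are GRCm38. PAX7 and MEF2C overlap the spans of long noncoding genes, 1 and 2 in number, so reads from these cannot be told apart if strand was not used.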

Additional observations from a re-analysis of the deposited data

Results flagged for a closer look

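In 3 of the 48 groups of 5 mice, 1 mouse stood apart from the other 4 by Dixon's criterion, and chance gives about 1 such group in 20. They were the MYF5 value of 1.86 RPKM in an EAE-induced mouse of day 14 (the others from 1.11), the MYMK value of 4.05 RPKM in another EAE-induced mouse of that day (the others from 1.62), and the MYF6 value of 98.1 RPKM in an unimmunized mouse of day 40 (the others from 68.6).

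The EAE difference changed from day 14 to day 40 by a test of the change itself in 11 cases. Against unimmunized mice the change on the log2 scale was -3.93 for MYOG, -2.24 for MYOD1, -1.63 for MYF6, -1.04 for MEF2C, -0.87 for MYF5 and -0.85 for CDH15. Against OVA-immunized mice it was -3.94 for MYOG, -1.86 for MYOD1, -1.76 for MYF6, -1.26 for CDH15 and -0.69 for MEF2C. The MYF5 call against unimmunized mice was lost with a pseudocount of 1, at -0.46, and the MEF2C call against OVA-immunized mice with median-of-ratios scaling, at -0.58. The sets share the EAE-induced mice.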

How the results depend on the processing

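Among the 5 genes above 3 RPKM, no count of called members left 1.5 times its value except in unimmunized mice, where 2 members, MEF2C and CDH15, were called between day 40 and day 14 once the fold threshold was dropped, and none with it. The 5 genes above 3 RPKM stayed called in EAE-induced mice of day 14 against both controls under every alternative run, each mouse left out included. Of the values for single members 2030 stayed on their side of the threshold, 10 gained and 5 lost a call. Differences called in neither fit changed sign 71 times, over 22 differences, the largest at 0.183 on the log2 scale. The count of called low genes did change: against unimmunized mice of day 14 the 1 call, MYF5, was lost with a pseudocount of 1, and against OVA-immunized mice, with 0 calls, some were gained. The gains were for MYF5 in 5 alternatives (among them without OVA replicate 1), PAX7 in 2 (0.74 with quantile normalization, and without EAE replicate 1), MYMK in 2 (in the model of all 30 mice, and without OVA replicate 5), and the MYMK change between days without OVA replicate 5. In refits of named list genes added after seeing the data, the TCF12 and FERMT2 calls in EAE-induced against unimmunized mice of day 14 were lost without unimmunized replicate 1, at 0.58 and 0.54. The HES1 call over OVA-immunized mice of that day was lost in 4 of 10 refits. The day 40 calls were lost in 6 and 8 of 10 for HES1, 9 for BHLHE41 and 7 for FBXO32. The losses for members beside those given above were the MEF2C change between days against OVA-immunized mice, -0.58 with median-of-ratios scaling, and the MYF5 change, -0.46 with a pseudocount of 1. All 5 losses for members were of the fold threshold, with an adjusted p still under 0.05. Median-of-ratios scaling moved the median log2 fold change of all genes on day 14 from 0.11 to 0.02 for EAE against unimmunized mice and from -0.15 to -0.04 for its change between days.

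With the replicate number as a block, the 5 members above 3 RPKM were called in EAE-induced mice of day 14 against either control, and no call of a member changed. The numbers did not meet the criterion for a pair, since only 7 of 30 same-numbered pairs had correlated deviations above 0.1 (range -0.68 to 0.66). Among those 7 were the 3 pairs of replicate 1 on day 14, at 0.58, 0.48 and 0.66, whose deviations did go together. Depth limits MYF5, PAX7 and MYMK, at 15 to 133 reads per mouse.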
